A study of Mus musculus with 2 samples.

Results

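The 10 genes described here encode the 3 chains of complement C1q (C1qa, C1qb and C1qc) and 7 products of macrophages that handle lipid or work in lysosomes (Lyz2, Apoe, Trem2, Fabp5, Cd63, Ctsb and Lgmn). They were chosen by symbol, and each matched 1 of the 27998 genes in the count tables. Levels were read in 4 cell classes set by UMI counts (a UMI marks 1 captured mRNA molecule) and compared between 2 libraries. One library held CD45.1+ cells, that is white blood cells carrying the CD45.1 form of the pan-leukocyte marker, sorted from pancreatic islets of female NOD/ShiLtJ mice at 7 weeks of age. The other held cells of the same sort, strain and sex at 12 weeks. NOD mice develop autoimmune diabetes as leukocytes infiltrate their islets. There was 1 library per age and the number of mice behind each is not given in the sources used here, so a difference between ages compares 2 libraries, carries no test, and cannot be told apart from a difference between library preparations. All intervals below are 95% intervals that cover counting error alone.

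C1q is the recognition unit of the classical complement pathway. It binds antibody in immune complexes and the surface of dying cells, and each molecule is assembled from all 3 of its chains, which tissue macrophages make in quantity. Macrophages that clear dead cells also take up lipid: Trem2 is a surface receptor for lipids and apoptotic material, Fabp5 carries fatty acids in the cytosol, and Apoe carries cholesterol out of the cell. Cd63 is a tetraspanin of late endosomes and lysosomes, Ctsb (cathepsin B) and Lgmn (legumain) are lysosomal proteases, and Lyz2 is the lysozyme of myeloid cells. In NOD islets, resident macrophages are present before lymphocytes arrive.

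The 3 C1q genes lie next to each other on the minus strand of chromosome 4 within 18675 bases (GRCm38, chr4:136880129-136898803), in the order C1qb, C1qc, C1qa. Lyz2 lies at chr10:117277331-117282321, with its paralog Lyz1 5475 bases away. The 250 bases upstream of a RefSeq start (build GRCm38.p6) are shown for C1qb, C1qc and Lyz2. They were picked because the first 2 followed each other closely cell by cell and Lyz2 followed them less, as described further on. All 3 windows are on the minus strand, chr4:136886201-136886450 for C1qb, chr4:136892915-136893164 for C1qc and chr10:117282273-117282522 for Lyz2. Capitals mark GAGGAA, the core of the motif bound by the myeloid factor PU.1, on either strand.
C1qb: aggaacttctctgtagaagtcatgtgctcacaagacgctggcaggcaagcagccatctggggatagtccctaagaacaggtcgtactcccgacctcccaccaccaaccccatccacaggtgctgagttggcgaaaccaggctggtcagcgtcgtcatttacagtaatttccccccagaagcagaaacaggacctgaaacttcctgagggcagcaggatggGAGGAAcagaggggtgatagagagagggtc
C1qc: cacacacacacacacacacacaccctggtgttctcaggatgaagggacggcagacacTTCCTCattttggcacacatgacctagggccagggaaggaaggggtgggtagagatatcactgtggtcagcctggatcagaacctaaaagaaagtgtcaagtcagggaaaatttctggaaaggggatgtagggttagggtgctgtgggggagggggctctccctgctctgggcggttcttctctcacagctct
Lyz2: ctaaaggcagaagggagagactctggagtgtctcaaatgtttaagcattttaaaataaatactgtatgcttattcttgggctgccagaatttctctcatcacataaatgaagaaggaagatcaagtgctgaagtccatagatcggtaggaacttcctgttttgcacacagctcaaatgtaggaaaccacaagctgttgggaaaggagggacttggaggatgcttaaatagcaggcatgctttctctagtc
Of the 10 genes 7 had an entry among the RefSeq promoters, with 10 starts in all. GAGGAA was found upstream of 6 of the 10 starts and of 23.3% of 32851 starts in the whole table. TCACGTG, the E-box of lysosomal genes, was found at 1 start, 50 bases before an Lgmn start, and at 3.13% of all. In C1qb the GAGGAA began 30 bases before the start and in C1qc 193 bases before it, and these letters were not in the Lyz2 window. They were also absent from both Lgmn windows and were present upstream of Apoe, Cd63 and Trem2 starts, and C1qa had no entry. A link between the motif and the correlations across cells was not tested.

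The filters left 1099 cells at 7 weeks (median depth 5643 UMIs) and 2741 at 12 weeks (median depth 4925), and 2 cell barcodes occurred in both libraries. Macrophages were cells with 3 or more UMIs of Csf1r, Adgre1 and Fcgr1 together, which encode the CSF1 receptor, F4/80 and CD64, and at most 2 of Siglech. They numbered 29 at 7 weeks and 71 at 12 weeks, with medians of 11946 and 13028 UMIs. All 14 macrophage markers, which include the 3 gate genes, were detected in them at both ages, at 77.4 and 95.2 UMIs per 10000 in sum. Detection alone does not set them apart, since all 14 were also detected in lymphocytes at 12 weeks, at 1.70 per 10000 in sum. Nor does the sum alone. It was 24.3 and 23.9 per 10000 in the dendritic cell gate and 54.1 and 81.4 in plasmacytoid dendritic cells, both described below. In the latter Tyrobp gave 39.9 and 61.2 of it, and 10 and 9 of the 14 markers were detected. In macrophages monocyte markers summed to 4.76 and 3.03 per 10000 and dendritic cell markers to 6.05 and 5.15. T cell markers summed to 6.23 per 10000 at 7 weeks and 1.86 at 12 weeks, and 10 of the 29 and 14 of the 71 macrophages also met the lymphocyte gate. Values without those cells are given below for some genes only, and other macrophage levels moved without them as well. C1qa moved from 17.4 to 14.7 UMIs per 10000 at 7 weeks and from 34.2 to 41.9 at 12 weeks, with C1qb and C1qc alike. Lyz2 moved from 94.2 to 111 and from 153 to 168. At 12 weeks Fabp5 moved from 9.32 to 11.6 and Lgmn from 3.60 to 4.39. Cells just inside the gate, with 3 gate UMIs, numbered 3 and 11, of which 0 and 1 held a C1q UMI, and cells just outside it, with 2, numbered 7 and 18, of which 2 and 3 held one.

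The dendritic cell gate (10 or more UMIs each of Cst3 and H2-Aa, with at most 2 of the macrophage gate and under 3 of Siglech) took 56 and 155 cells. Dendritic cell markers reached 3 or more UMIs in 52 and 127 of these, and macrophage markers in 55 and 151. The gate also took other cells. At 12 weeks 19 cells held 20 or more plasma cell marker UMIs, 21 held 20 or more of B cell markers, 4 held 20 or more of islet endocrine markers and 1 held 20 or more of fibroblast markers, and 28 cells at 7 weeks and 44 at 12 weeks met the lymphocyte gate. Without the latter, plasma cell markers went from 74.7 to 1.03 UMIs per 10000 at 7 weeks and from 127 to 1.26 at 12 weeks. The cells with islet endocrine and fibroblast markers mostly stayed, so those markers at 12 weeks went from 126.1 to 189 and from 1.27 to 1.92 per 10000. Plasmacytoid dendritic cells (pDC, Siglech of 3 or more) numbered 28 and 50 with all 9 pDC markers detected, at 84.4 and 128 UMIs per 10000 in sum. All 9 were also detected in the dendritic cell gate, at 4.10 and 5.22, and in lymphocytes, at 2.27 and 2.45. Of the pDC 7 of 28 and 4 of 50 met the lymphocyte gate, and T cell markers in pDC summed to 14.2 and 2.67 per 10000. Lymphocytes (Cd3e of 1 or more or Cd79a of 2 or more, outside the other gates) numbered 878 and 2205, with medians of 5514.5 and 4815 UMIs. They serve as the measure of free RNA for genes of myeloid cells.

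C1q mRNA was concentrated in macrophages at both ages. At 7 weeks C1qa stood at 17.4 UMIs per 10000 in macrophages (16.1 to 18.8), against 0.102 in the dendritic cell gate, 0.033 in pDC and 0.039 in lymphocytes. At 12 weeks the same classes gave 34.2 (33.1 to 35.4), 0.125, 0.076 and 0.056. The other classes did not separate beyond counting error except for the dendritic cell gate, whose C1qa level was 2.61 times that of lymphocytes at 7 weeks (1.07 to 5.77) and 2.25 times at 12 weeks (1.38 to 3.55). C1qb stood at 12.9 and 26.0 per 10000 in macrophages and at 0.027 and 0.046 in lymphocytes. C1qc stood at 10.1 and 20.2 in macrophages and at 0.034 and 0.041 in lymphocytes. In lymphocytes the 3 chains together came to 0.249% of the macrophage level at 7 weeks (0.190 to 0.319) and to 0.176% at 12 weeks (0.152 to 0.203).

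**Figure D1:**
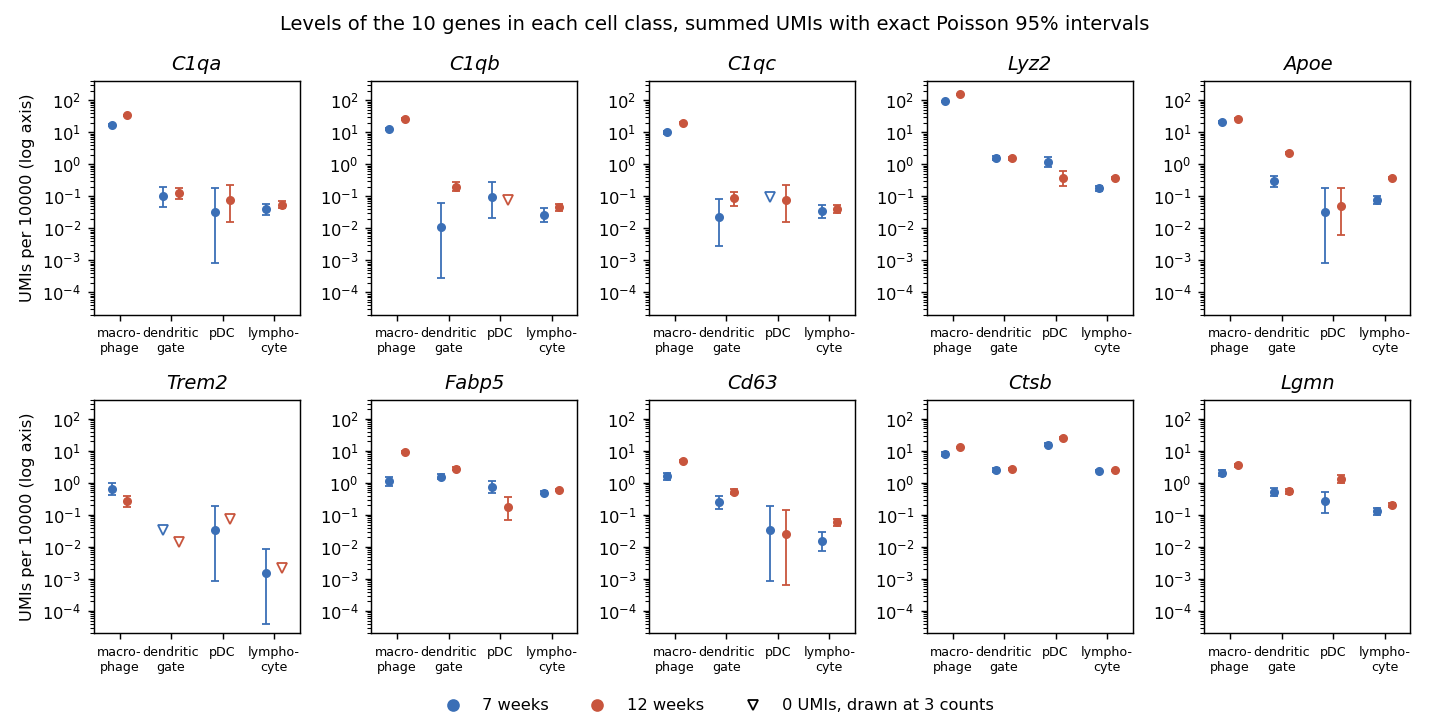
Level of each of the 10 genes in 4 cell classes. Each point is the summed UMIs of a class per 10000 UMIs on a log axis, blue for 7 weeks and red for 12 weeks, with exact Poisson 95% intervals, and open triangles mark classes with 0 UMIs at the level of 3 counts. The C1q chains, Lyz2, Apoe and Trem2 stand highest in macrophages, while Ctsb is highest in pDC at both ages.

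The C1q UMIs outside macrophages had 2 patterns. In lymphocytes they were spread thinly: 61 of 878 cells at 7 weeks held the 64 UMIs and 175 of 2205 at 12 weeks held the 196, with 12 in the cell that had the most. T cells and B cells held the 3 chains at a like level, 0.099 and 0.104 UMIs per 10000 at 7 weeks and 0.140 and 0.148 at 12 weeks, a ratio of 0.957 (0.467 to 2.21) and 0.949 (0.680 to 1.34). C1qa, C1qb and C1qc made up 39.3%, 32.1% and 28.6% of the lymphocyte C1q UMIs at 12 weeks, beside 42.5%, 32.4% and 25.1% in macrophages of that library. In the dendritic cell gate at 12 weeks, by contrast, 40 of the 86 C1q UMIs sat in 1 cell of 4837 UMIs, which held 44 macrophage marker UMIs and 40 of Lyz2, and a further 11 sat in 1 cell with 895 plasma cell marker UMIs. No cell of the pDC gate held more than 1 C1q UMI. C1qc had 0 UMIs in the 28 pDC at 7 weeks, which puts macrophages at least 101.7-fold higher against the floor of 3 counts over the group, and the counting interval of the ratio starts at 82.3.

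Lyz2 was the most abundant of the 10 genes in macrophages by UMI count. It stood at 94.2 UMIs per 10000 at 7 weeks and 153 at 12 weeks, and single macrophages held from 0 to 349 UMIs (median 70) and from 0 to 3080 (median 73). Lyz2 was found in 27 of 29 and 65 of 71 macrophages, beside 102 of 878 and 400 of 2205 lymphocytes. The dendritic cell gate stood at 1.59 and 1.58 per 10000, or 3.02 and 1.93 without the cells that met the lymphocyte gate. Lymphocytes stood at 0.178 and 0.377, which is 0.189% and 0.246% of the macrophage level. Lyz1, the near-identical paralog, drew 112 UMIs in macrophages at 7 weeks and 49 at 12 weeks, beside 3521 and 14525 for Lyz2, and reads shared by the paralogs could not be told apart here.

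Apoe stood at 21.1 UMIs per 10000 in macrophages at 7 weeks (19.7 to 22.6) and 26.4 at 12 weeks (25.4 to 27.5), or 16.1 and 32.7 without the cells that met the lymphocyte gate. It was far less evenly spread than Lyz2: 18 of 29 and 41 of 71 macrophages held none, and the 5 cells with the most held 95.4% and 53.6% of the Apoe UMIs. In the dendritic cell gate Apoe stood at 0.306 and 2.26 per 10000, but of the 469 UMIs at 12 weeks 301 lay in a cell with 260 fibroblast marker UMIs and 152 in a cell with 125 B cell marker UMIs, and no other cell held more than 1. Lymphocytes stood at 0.077 and 0.369, and at 12 weeks 247 of their 509 Apoe UMIs came from 1 cell that held 394 fibroblast marker UMIs. Without that cell the lymphocyte level at 12 weeks went from 1.40% to 0.720% of the macrophage level. At 12 weeks 5 B cells held 10 or more Apoe UMIs each, and the cells with the most Apoe at 7 weeks in the dendritic cell gate (22 of 27 UMIs) and in lymphocytes (6 of 49) had 112 and 123 B cell marker UMIs. Apoe was thus counted in some cells with fibroblast or B cell markers as well as in macrophages, while in pDC it drew 1 and 2 UMIs in all.

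Trem2 was sparse, and most of its UMIs in the 4 classes lay in macrophages. It drew 24 UMIs in 9 of 29 macrophages at 7 weeks and 26 UMIs in 10 of 71 at 12 weeks. Lymphocytes held 1 Trem2 UMI among 878 cells at 7 weeks and 0 among 2205 at 12 weeks, where the macrophage level of 0.274 per 10000 was at least 126-fold higher than the floor of 3 counts over the group, with a counting interval that starts at 95.6. The dendritic cell gate held 0 at both ages, and pDC held 1 and 0. Cd63 stood at 1.61 and 4.77 per 10000 in macrophages (0.912 and 5.80 without the cells that met the lymphocyte gate), at 0.249 and 0.531 in the dendritic cell gate and at 0.016 and 0.058 in lymphocytes. Of the 80 Cd63 UMIs in lymphocytes at 12 weeks 40 came from the cell with fibroblast markers that also led Apoe, and without it the lymphocyte level went from 1.21% to 0.608% of the macrophage level.

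Fabp5, Ctsb and Lgmn were also found in other classes. Fabp5 stood at 1.12 UMIs per 10000 in macrophages at 7 weeks and at 0.498 in lymphocytes, 44.3% of that level (32.0 to 62.6), and at 9.32 and 0.591 at 12 weeks, or 6.34% (5.76 to 6.98). Lymphocytes of 74870 and 64433 UMIs held 44 and 38 of the 318 Fabp5 UMIs at 7 weeks. As a mean over cells lymphocytes stood at 0.261 and 0.337, and macrophages at 12 weeks at 5.62. Within lymphocytes Fabp5 was a T cell transcript, 22.1 times higher in T than in B cells at 7 weeks (6.06 to 184) and 8.77 times at 12 weeks (6.02 to 13.3). The dendritic cell gate stood at 1.56 and 2.80 per 10000, so at 7 weeks the ratio of macrophages to it was 0.719 (0.496 to 1.02). Ctsb was detected in all macrophages and all pDC. Its level was highest in pDC, at 15.7 per 10000 at 7 weeks and 24.7 at 12 weeks, followed by macrophages at 8.03 and 12.8, while the dendritic cell gate stood at 2.50 and 2.71 and lymphocytes at 2.43 and 2.44. The macrophage to pDC ratio of Ctsb was 0.511 (0.440 to 0.591) and 0.519 (0.477 to 0.565). That likeness between ages turned on cells that also met the lymphocyte gate. Without them Ctsb at 7 weeks stood at 5.92 per 10000 in macrophages and 21.1 in pDC. At 12 weeks it stood at 15.2 in macrophages. T cells held more Ctsb than B cells, 5.29 times at 7 weeks (3.94 to 7.25) and 3.93 times at 12 weeks (3.45 to 4.49). Lgmn had the opposite order, with B cells at 0.403 and 0.644 per 10000 and T cells at 0.071 and 0.055, a T to B ratio of 0.175 (0.107 to 0.286) and 0.085 (0.062 to 0.115). Macrophages held 2.09 and 3.60 per 10000 of Lgmn, pDC 0.264 and 1.35, and the dendritic cell gate 0.521 and 0.550.

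By a rule of 4-fold with an interval that excludes 1, applied to genes with 20 or more UMIs in the 2 classes together, 8 of the 10 genes were higher in macrophages than in lymphocytes at 7 weeks and all 10 at 12 weeks, beside 5.36% and 7.34% of all genes. The 2 that missed the fold at 7 weeks were Fabp5, at 2.26 (1.60 to 3.12), and Ctsb, at 3.30 (2.91 to 3.74). Against the dendritic cell gate 8 of 10 passed at 7 weeks and 9 of 10 at 12 weeks, beside 2.08% and 2.50% of all genes. Fabp5 missed it at both ages and Ctsb at 7 weeks, and at 12 weeks Ctsb stood at 4.74 (4.29 to 5.25), or at 2.93 when cells with 3 or more Siglech UMIs were kept in that gate, which leaves 8 of 10. With a macrophage gate of 5 or more UMIs Fabp5 passed at 12 weeks, at 4.24 (3.81 to 4.73). Against pDC 8 of 10 passed at both ages, beside 6.07% and 8.46%. The exceptions there were Fabp5 and Ctsb at 7 weeks and Ctsb and Lgmn at 12 weeks, Lgmn at 2.67 (1.995 to 3.64). Trem2 was counted as passing at 12 weeks on 26 UMIs against 0 in pDC. Against the floor of 3 counts it stood at 3.60, under 4-fold, and its interval starts at 2.72. Fabp5 passed at 7 weeks, at 5.07 (1.95 to 16.7), without the cells that met the lymphocyte gate, 1 of which held 18 of the 23 Fabp5 UMIs in pDC. The genes had been chosen as macrophage genes, so these counts describe them and support nothing further.

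Macrophages varied widely in C1q, with a clear gap in the counts at 7 weeks and a more graded spread at 12 weeks. At 7 weeks 15 of 29 cells held no C1q UMI and 3 held 1, and the remaining 11 held between 27 and 301, with no cell in between. At 12 weeks 34 of 71 held none, 7 held 1 to 9, 9 held 19 to 95 and 21 held 101 to 947. The share with 10 or more C1q UMIs was 37.9% at 7 weeks (20.7 to 57.7, Clopper-Pearson) and 42.3% at 12 weeks (30.6 to 54.6), and these intervals overlap. The cells without C1q were not shallow: their median depth was 13691 UMIs at 7 weeks and 13023 at 12 weeks, beside 11438 and 12982 in the cells with 10 or more. When each cell was thinned to 3000 UMIs, 11 of 29 macrophages still held a C1q UMI at 7 weeks, and the share at 12 weeks was 46.5%, beside 4.17% and 4.22% of thinned lymphocytes. All ranges of C1q were set after the values were seen and are ranges of a count, not cell types.

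**Figure D2:**
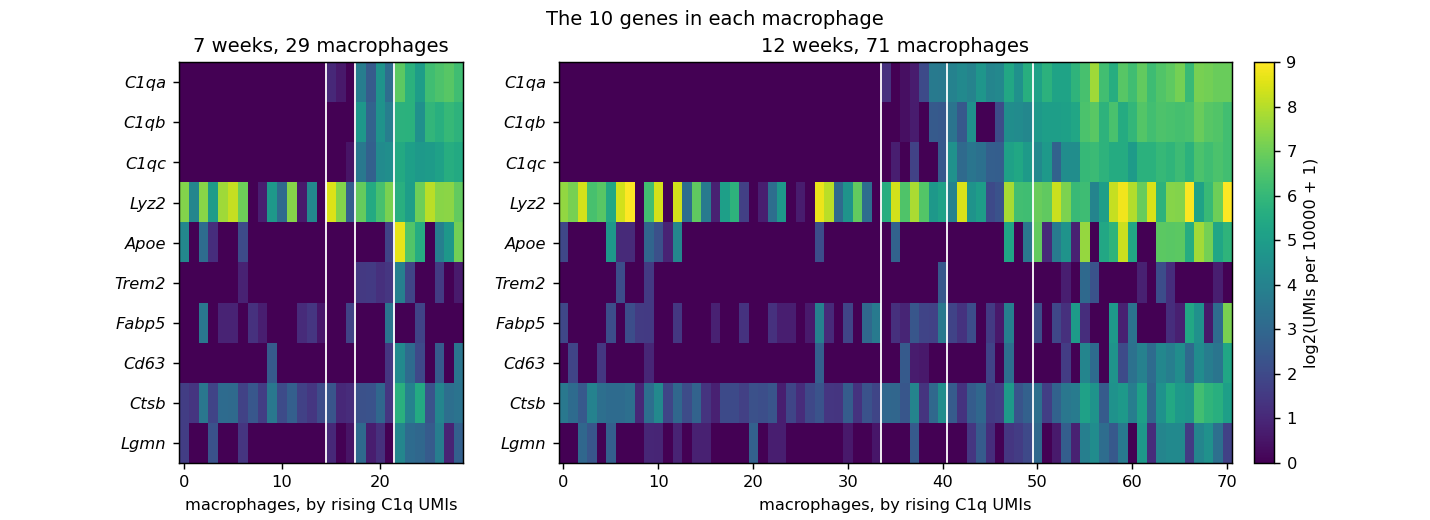
Each column is 1 macrophage, ordered by rising C1q UMIs (3 chains summed), and each row is a gene, coloured by log2(UMIs per 10000 + 1). White lines mark 1, 10 and 100 C1q UMIs. The C1q rows are lit together in the 11 of 29 and 30 of 71 cells with 10 or more UMIs, Lyz2 is lit on both sides of that line, and Apoe, Cd63 and Lgmn are brightest at the right end.

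The 3 chains came together in these cells. All 11 macrophages with 10 or more C1q UMIs at 7 weeks, and 28 of the 30 at 12 weeks, held UMIs of each chain, and the 2 exceptions lacked C1qb while holding 25 and 26 UMIs of C1qa. Pooled over macrophages, C1qa gave 43.1% of the C1q UMIs at 7 weeks (40.6 to 45.6) and 42.5% at 12 weeks (41.4 to 43.6). C1qb gave 31.9% and 32.4%, and C1qc 24.97% and 25.1%. The proportions thus differed between the libraries by less than their counting error.

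Other genes of the gate followed the C1q ranges in part. Adgre1 was detected in 7 of 11 macrophages with 10 or more C1q UMIs and in 8 of 18 with fewer at 7 weeks, and in 15 of 30 and 19 of 41 at 12 weeks. The median of the 3 gate genes together was 13 UMIs against 6.5 at 7 weeks and 21.5 against 6 at 12 weeks. Cells with 3 or more UMIs of dendritic cell genes (Flt3, Zbtb46, Xcr1, Clec9a and Cd209a) made up 7 of the 18 macrophages under 10 C1q UMIs and 1 of the 11 above at 7 weeks, and 12 of 41 and 2 of 30 at 12 weeks. For monocyte genes (Chil3, F13a1, Vcan and Ly6c2) the counts were 6 of 18 and 2 of 11, then 9 of 41 and 6 of 30. The part of cells of these kinds in the spread of C1q was not tested.

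Apoe was found at the upper end of the C1q range. Of the macrophages with 100 or more C1q UMIs, 6 of 7 at 7 weeks and 18 of 21 at 12 weeks held Apoe, at medians of 94 and 99 UMIs. Of those with 10 to 99 C1q UMIs 1 of 4 and 2 of 9 did, with at most 3 and 22 UMIs, although their median depth was 9577 and 9795 UMIs against 11438 and 14264. With no C1q UMI, 4 of 15 and 9 of 34 held Apoe, with at most 8 and 24 UMIs. Cd63 was alike, detected in 5 of 7 and 16 of 21 cells with 100 or more C1q UMIs and in 1 of 15 and 4 of 34 with none. Lgmn was found in 7 of 7 and 19 of 21 cells with 100 or more C1q UMIs, at medians of 10 in both libraries, and in 3 of 15 and 13 of 34 cells with none. Trem2 at 7 weeks reached lower: it was present in 4 of 4 cells with 10 to 99 C1q UMIs and 4 of 7 with 100 or more, but in 1 of 18 below, while at 12 weeks it was in 0 of 9, 7 of 21 and 3 of 41.

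Lyz2 and Fabp5 were also common in macrophages below 10 C1q UMIs. Lyz2 stood at 81.0 UMIs per 10000 in macrophages under 10 C1q UMIs and 120 in those with 10 or more at 7 weeks. At 12 weeks it stood at 100 and 222, where 1 cell held 3080 of the 9171 UMIs behind the 222. Of the low cells 16 of 18 and 35 of 41 were positive. Fabp5 was present in 9 of 18 macrophages under 10 C1q UMIs and 2 of 11 above at 7 weeks, and in 23 of 41 and 21 of 30 at 12 weeks. Ctsb was in every macrophage of both ranges, at 3.87 and 16.01 per 10000 at 7 weeks and at 4.65 and 23.4 at 12 weeks.

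Correlations across macrophages gave the same picture as a description over 29 and 71 cells, which share a library within each age. Spearman's rho between any 2 C1q chains was 0.92 to 0.96 in both libraries. With the sum of the 3 chains, rho at 7 and 12 weeks was 0.72 and 0.63 for Lgmn, 0.56 and 0.67 for Cd63, 0.52 and 0.56 for Apoe and 0.44 and 0.62 for Ctsb. It was 0.60 and 0.33 for Trem2, 0.33 and 0.32 for Lyz2, and -0.30 and 0.23 for Fabp5. Combined over both libraries, rho for Lyz2 was 0.32, and 0.12 without macrophages holding dendritic cell genes. For Trem2 it was 0.42, and 0.20 in cells thinned to 3000 UMIs. The C1q level had rho of -0.14 and 0.09 with cell depth and of -0.27 and -0.36 with the dendritic cell genes. With the 3 gate genes together, as a share of the cell's UMIs, rho was 0.51 and 0.55 for C1q. It was 0.72 and 0.60 for Lgmn, 0.53 and 0.66 for Ctsb, 0.56 and 0.48 for Apoe and 0.31 and 0.37 for Cd63. For Trem2 it was 0.65 and 0.37, for Lyz2 0.53 and 0.33 and for Fabp5 -0.41 and 0.01. The part of the gate genes in the correlations with C1q was not tested.

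**Figure D3:**
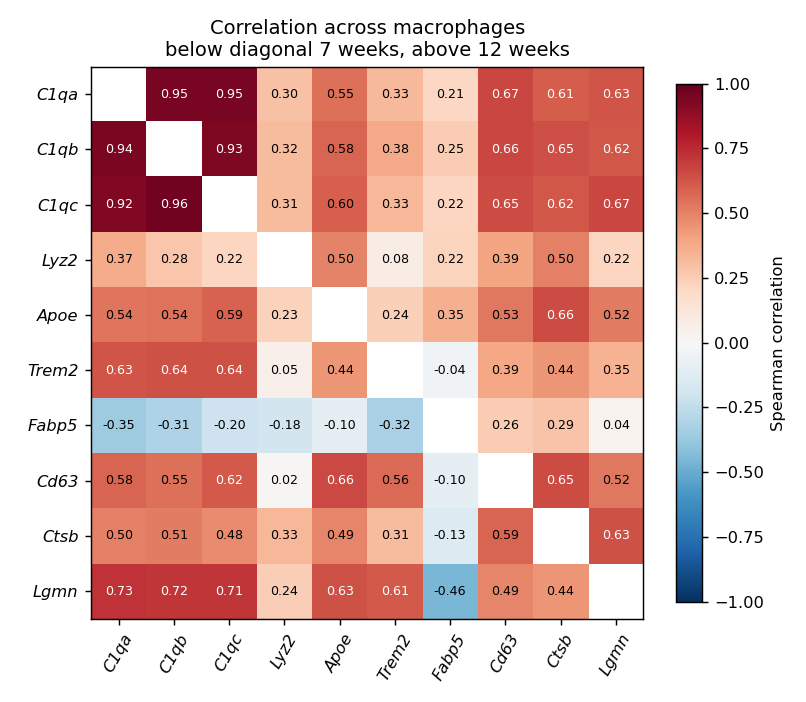
Spearman correlation between the 10 genes across macrophages, on UMIs per 10000 of each cell, with 29 cells at 7 weeks below the diagonal and 71 cells at 12 weeks above it. The C1q chains form a block at 0.92 to 0.96, and Fabp5 at 7 weeks is negative with every other gene, down to -0.46 with Lgmn.

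**Figure D4:**
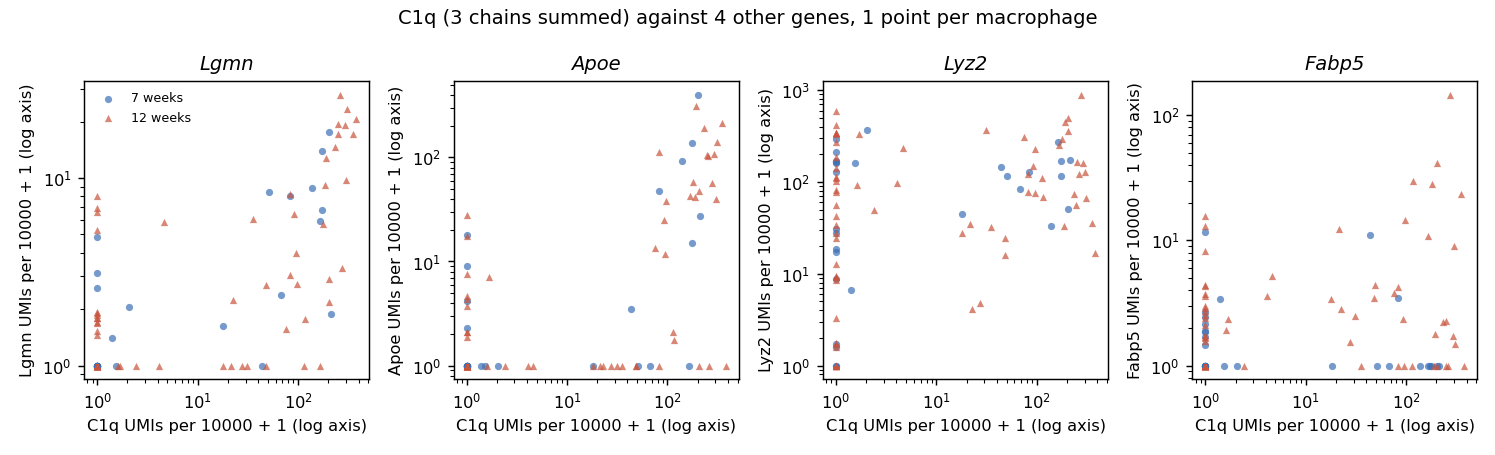
C1q (sum of 3 chains) on the horizontal axis against Lgmn, Apoe, Lyz2 and Fabp5 on the vertical axis, both as UMIs per 10000 plus 1 on log axes, with 1 point per macrophage (blue circles 7 weeks, red triangles 12 weeks). High Apoe appears at the right end of the C1q axis, whereas Lyz2 is high at both ends and Fabp5 at 12 weeks has 1 cell far above the rest.

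The genes most like C1q across macrophages were named by the combined rho over 3589 genes detected in at least 25% of macrophages at both ages. They were Ctsz (0.69) and Ctss (0.69), which are lysosomal cathepsins, Itm2b (0.69), a membrane protein, Ms4a7 (0.68), a marker of tissue macrophages, and Cd81 (0.66), a tetraspanin. The least like were Napsa (-0.70), an aspartic protease, S100a4 (-0.66) and S100a6 (-0.65), which are calcium-binding proteins, Lsp1 (-0.66), an actin-binding protein of leukocytes, and Mdh2 (-0.61), a mitochondrial enzyme. For Lyz2 the list was a different one, headed by Psap (0.64), the precursor of the saposins, and Fcgr3 (0.55), an antibody receptor. The lowest for Lyz2 were H2-Ob (-0.57), Actn1 (-0.57) and Flt3 (-0.56), Flt3 being the cytokine receptor of dendritic cells.

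Between the 2 libraries most of the 10 genes stood higher in macrophages at 12 weeks. C1qa went from 17.4 to 34.2 UMIs per 10000, a ratio of 1.97 (1.81 to 2.15), C1qb had a ratio of 2.02 (1.83 to 2.24) and C1qc one of 2.01 (1.80 to 2.25). The 3 chains moved by the same ratio within their intervals. Lyz2 had a ratio of 1.63 (1.57 to 1.69), Ctsb 1.60 (1.41 to 1.82), Lgmn 1.72 (1.34 to 2.23) and Cd63 2.97 (2.27 to 3.96). Fabp5 had the greatest ratio of the 10, 8.29 (6.08 to 11.6), on 42 and 883 UMIs. Trem2 went the other way, from 0.642 to 0.274 per 10000, a ratio of 0.427 (0.236 to 0.777) on 24 and 26 UMIs. Apoe, at 1.25 (1.15 to 1.36), did not pass 1.5-fold. All 10 genes had the 20 UMIs needed, and by the rule of 1.5-fold with an interval that excludes 1, 8 were higher and 1 lower at 12 weeks, beside 5.31% and 8.03% of 5741 genes.

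**Figure D5:**
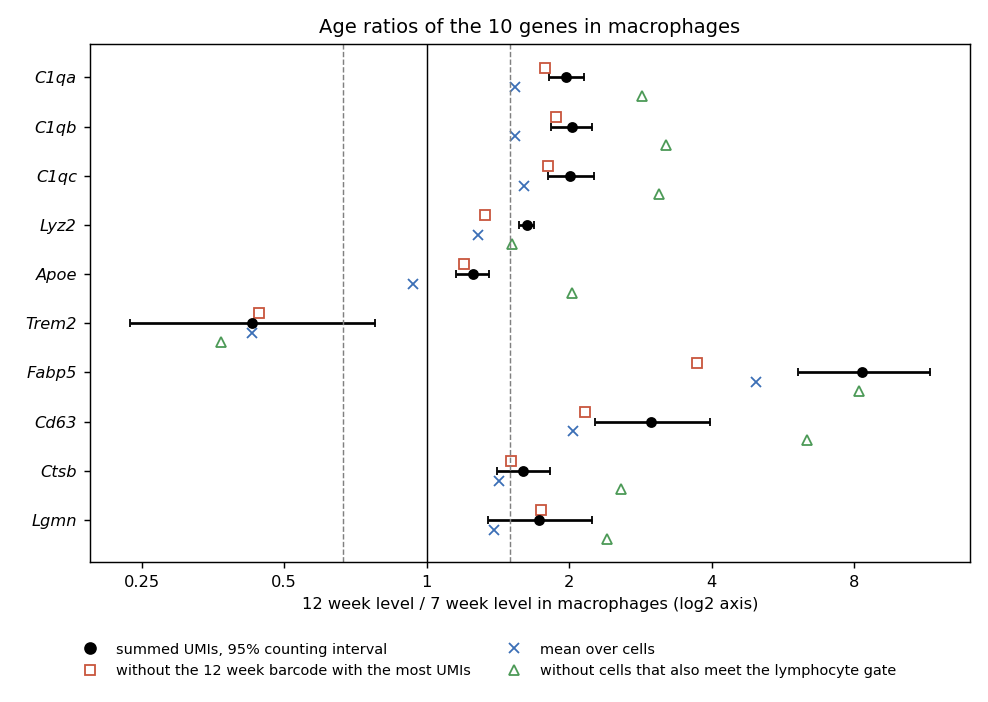
Ratio of the 12 week to the 7 week level in macrophages on a log2 axis. Black points are summed UMIs with 95% counting intervals, red squares leave out the 12 week barcode with the most UMIs, blue crosses average the share over cells, green triangles leave out cells that also met the lymphocyte gate, and dashed lines mark 1.5-fold. The C1q chains stay at or above 1.54 in all 4, Apoe lies on both sides of 1, and Fabp5 ranges from 3.72 to 8.29.

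These ratios rested unevenly on single cells. The 12 week macrophage with the most UMIs (34428) held 501 of the 883 Fabp5 UMIs, 136 of 452 of Cd63, 3080 of 14525 of Lyz2 and 947 of 7628 of C1q, as well as 78 of the 81 UMIs of Gpnmb, a glycoprotein of lipid-loaded macrophages. It held 0 Trem2 UMIs and 0 of Cd3e and Cd79a. Without it the ratio was 3.72 for Fabp5, 2.16 for Cd63 and 1.82 for C1q, and Lyz2 at 1.33 no longer passed 1.5-fold. At 7 weeks 10 of the 24 Trem2 UMIs came from 1 cell and 288 of the 789 Apoe UMIs from 1 cell. Without the cell with the most UMIs of the gene in each library, Trem2 stood at 0.557 and no longer passed, and Apoe at 1.65 passed.

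Other weights changed the sizes and not the direction for C1q. As a mean over cells, the C1q ratio was 1.55, and Lyz2 (1.29), Ctsb (1.42) and Lgmn (1.39) fell short of 1.5-fold while Apoe stood at 0.937. Leaving out the macrophages that met the lymphocyte gate left 19 and 57 cells and gave 3.02 for C1q, 6.36 for Cd63, 2.57 for Ctsb and 2.03 for Apoe. Those cells included 4 of the 11 macrophages with 10 or more C1q UMIs at 7 weeks and 3 of the 30 at 12 weeks. Within the cells that held 10 or more C1q UMIs the C1q level was 117 per 10000 at 7 weeks and 184 at 12 weeks, a ratio of 1.56 (1.48 to 1.65). In these same cells Apoe had a ratio of 0.976 (0.899 to 1.06), Lyz2 1.85 (1.76 to 1.96) and Trem2 0.256 (0.132 to 0.491). These too rested on single cells: the 12 week barcode with the most UMIs held 3080 of their 9171 Lyz2 UMIs. At 7 weeks 1 cell held 10 of their 23 Trem2 UMIs.

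Fewer of the genes passed the 1.5-fold rule between the libraries in lymphocytes and in the dendritic cell gate than in macrophages. In lymphocytes 9 of the 10 had 20 or more UMIs and 4 were higher by the 1.5-fold rule, beside 3.63% of all genes: Apoe at 4.81 (3.58 to 6.58), Cd63 at 3.70 (1.91 to 8.01), Lyz2 at 2.11 (1.72 to 2.61) and Lgmn at 1.57 (1.23 to 2.04). None was lower, beside 7.00%. Without the lymphocyte with the most Apoe UMIs in each library Apoe stood at 2.82. At 12 weeks that cell also held 40 of the 80 Cd63 UMIs, and at 7 weeks lymphocytes held 10 Cd63 UMIs in all. C1q in lymphocytes had a ratio of 1.42 (1.06 to 1.91), next to 1.998 (1.89 to 2.11) in macrophages. Ctsb in lymphocytes had a ratio of 1.003 (0.944 to 1.07). In the dendritic cell gate 4 of 9 were higher, beside 5.74%: Apoe at 7.40, Cd63 at 2.13 (1.34 to 3.53), Fabp5 at 1.79 (1.48 to 2.17) and C1qb at 17.9 on 1 and 42 UMIs. None was lower there, beside 6.08%. Apoe in that gate rested on the 2 cells named above. For Cd63 the 2 cells with the most, 26 and 18 of 110 UMIs at 12 weeks, held 15714 islet endocrine and 260 fibroblast marker UMIs, and the ratio among the cells outside the lymphocyte gate was 23.3 (4.08 to 931), on 1 UMI at 7 weeks. Of the 42 C1qb UMIs 17 and 11 lay in 2 cells, and C1qb no longer passed among the cells outside the lymphocyte gate, at 5.50 (0.885 to 228). Lyz2 there stood at 0.994 (0.813 to 1.22), or at 0.637 (0.508 to 0.804) among the cells outside the lymphocyte gate.

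In pDC 4 of the 10 had 20 or more UMIs. Of these 2 were higher, beside 7.34%, and 2 lower, beside 6.81%. Lgmn went from 8 UMIs in 28 cells to 53 in 50 cells, a ratio of 5.11 (2.41 to 12.4), and no cell held more than 4. Without pDC that met the lymphocyte gate the Lgmn ratio was 3.46 (1.56 to 9.06). Ctsb had a ratio of 1.57 (1.41 to 1.76), or 1.19 without pDC that met the lymphocyte gate. Lyz2 at 0.321 (0.164 to 0.602) and Fabp5 at 0.235 (0.085 to 0.565) were lower, and of the 36 Lyz2 UMIs at 7 weeks 16 and 15 lay in 2 cells, and 18 of the 23 Fabp5 UMIs in 1 cell with 146 T cell marker UMIs. Among pDC outside the lymphocyte gate Fabp5 stood at 0.504 (0.116 to 2.19) and no longer passed.

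Related genes of the same pathways were read from fixed lists in macrophages, where the median log2 ratio over all 5741 genes was -0.02. In the complement list 2 of 12 measured genes passed 1.5-fold, both higher at 12 weeks and none lower, beside 5.31% and 8.03% of all genes, with a median log2 ratio of 0.19. They were Cfp (properdin), from 3.64 to 5.84 UMIs per 10000 at a ratio of 1.60 (1.33 to 1.95), and Cfb (factor B), at 1.72 (1.34 to 2.23), both of the alternative pathway. For Cfb 1 cell held 50% of the UMIs at 7 weeks. Calr (calreticulin), which binds C1q, stood at 1.24 (1.09 to 1.43). Of the lysosome list 9 of 23 genes were higher and 0 lower, beside 5.31% and 8.03%, with a median of 0.41. Psap went from 24.2 to 37.9 per 10000, a ratio of 1.57 (1.46 to 1.69), Ctsd (cathepsin D) had a ratio of 2.20 (1.79 to 2.73) and Grn (progranulin) one of 2.14 (1.70 to 2.71). Cst3, the cathepsin inhibitor cystatin C, stood at 0.988 (0.931 to 1.05).

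Among lipid handling genes 6 of 23 were higher and 1 lower, beside 5.31% and 8.03%, with a median log2 ratio of 0.18. Pltp, the phospholipid transfer protein, had a ratio of 2.71 (1.96 to 3.85). Gpnmb stood at 7.99 (3.002 to 30.02), and 96.3% of its 12 week UMIs lay in the barcode described above. Fabp4, a fatty acid carrier named after its value was seen, was also among the 6, with all 3 of its UMIs at 7 weeks and 88.6% of the 35 at 12 weeks in 1 cell each. Tyrobp, the signalling partner of Trem2, stood at 1.26 (1.16 to 1.38) and Npc2, a lysosomal cholesterol carrier, at 1.14 (0.996 to 1.297). The 1 lower gene was Syk, a kinase downstream of Tyrobp, at 0.625 (0.472 to 0.831). Syk was named after its value was seen.

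The resident macrophage list had 2 higher and 2 lower of 9 genes, beside 5.31% and 8.03%, with a median of 0.33. Cd72 stood at 2.88 (2.11 to 4.01) and Cd81 at 1.64 (1.298 to 2.09). The lower genes included Pf4, a chemokine, which stood at 0.632 with 98.5% of its 7 week UMIs in 1 cell. In the monocyte list 4 of 7 were lower and 0 higher, beside 8.03% and 5.31%, with a median of -0.73. They were Ccr2, the chemokine receptor of inflammatory monocytes, at 0.595 (0.464 to 0.766), Fn1 (fibronectin) at 0.412 (0.220 to 0.776) with 40.9% of its 22 UMIs at 7 weeks and 73.9% of its 23 at 12 weeks in 1 cell each, Ly6c2 at 0.605 (0.432 to 0.852) and Itgal at 0.534 (0.328 to 0.879). Pf4, Ly6c2 and Itgal too were named after their values were seen. T cell markers in these macrophages stood at 6.23 and 1.86 per 10000, and lymphocytes held Ccr2 at 0.515 and 0.364. Their part in the lower monocyte list was not tested. The most abundant of the list, S100a4 and Plac8, stood at 1.01 (0.925 to 1.12) and 0.902 (0.813 to 1.002). Without macrophages holding 3 or more UMIs of monocyte genes, 21 and 56 cells remained and the C1q ratio was 1.79.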

How the data were processed

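Single cell cDNA libraries were made with the 10x Genomics Chromium Single Cell 3' chemistry, per the labels' protocols, and the deposited files hold UMI counts per gene and barcode that the authors made with Cell Ranger 1.3.1 and mm10, per the submitters' processing notes. The tables held 1113 barcodes and 8701184 UMIs at 7 weeks and 2812 barcodes and 19288252 UMIs at 12 weeks. Barcodes with under 200 genes or over 10% mitochondrial UMIs were removed (4 and 8), then those with the highest simulated doublet scores up to 0.8% per 1000 barcodes (10 and 63). UMIs were summed per class and library. Levels carry exact Poisson intervals, ratios exact conditional binomial intervals and shares Clopper-Pearson intervals, all at 95%. The ratio rule was run on simulated Poisson counts with known fold changes. Those counts lack the uneven spread of UMIs over cells seen here, so that run cannot show how the rule behaves under such spread. With 1 library per age no test over samples was made. Genes were named as all 10 members and, from each fixed list, the 2 with the most UMIs and the 2 whose interval lay furthest from 1, and the 5 genes most and least like C1q and Lyz2. One of the genes on these lists is not reported here by name. Members, classes and lists were chosen with earlier results of these data known. Free RNA was read from lymphocytes. The marker lists used were macrophage, monocyte, dendritic cell, pDC, T cell, B cell, plasma cell, islet endocrine and fibroblast. In macrophages at 7 and 12 weeks, further lists summed to 0.35 and 0.03 UMIs per 10000 for NK cells, 0.27 and 0.36 for neutrophils, 0.24 and 1.38 for acinar cells, 0.32 and 0.21 for red blood cells and 0.21 and 0.22 for endothelial cells. Positions come from GENCODE vM21 (GRCm38), in which all 10 gene IDs matched. Python 3.11.15 with numpy 2.4.6, scipy 1.17.1, pandas 2.3.3 and scikit-learn 1.9.0 was used.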

Additional observations from a re-analysis of the deposited data

Results flagged for a closer look

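Lyz2 and Fabp5 moved in opposite directions between the libraries in pDC and in other classes, and these differences were not tested. The Lyz2 ratio of 12 to 7 weeks in macrophages was 5.06 times that in pDC, and the ratio in lymphocytes 6.57 times. The Fabp5 ratio in macrophages was 35.3 times that in pDC, that in the dendritic cell gate 7.62 times and that in lymphocytes 5.06 times. The pDC side was thin. Without the cell with the most UMIs of the gene in each library the pDC ratio was 0.501 (0.229 to 1.06) for Lyz2 and 0.802 (0.204 to 3.32) for Fabp5. Among pDC outside the lymphocyte gate it was 0.392 (0.180 to 0.834) for Lyz2 and 0.504 (0.116 to 2.19) for Fabp5.

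Cells of no class, 108 at 7 weeks and 260 at 12 weeks, held some of the genes above the lymphocyte level. At 12 weeks Apoe stood there at 4.08 UMIs per 10000, Fabp5 at 4.11, Lyz2 at 2.99 and Cd63 at 1.25, and at 7 weeks Cd63 stood at 0.261. C1qa at 12 weeks stood at 0.224 against 0.056 in lymphocytes, 4.02 times higher (2.54 to 6.199), and 1 cell gave 17 of the 30 UMIs. A few cells held most of these. At 12 weeks 4 cells with 254 to 709 fibroblast marker UMIs held 264, 86, 64 and 40 of the 546 Apoe UMIs. A cell of 15401 UMIs with 38 dendritic cell marker UMIs held 314 of Fabp5, and a cell with 41 macrophage marker UMIs held 236 of Lyz2. At 7 weeks 15 Cd63 UMIs came from a cell with 5880 islet endocrine marker UMIs.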

How the results depend on the processing

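No paired analysis was possible because each age had 1 library. The C1q ratio between ages in macrophages kept its direction and passed 1.5-fold under all 10 alternatives, from 1.55 to 3.02, and so did Fabp5 (3.72 to 9.88) and Cd63 (2.03 to 6.36). Trem2 lay between 0.326 and 0.557 and Apoe between 0.895 and 2.03. The C1q level in macrophages at 7 and 12 weeks was 32.7 and 98.6 per 10000 without cells that met the lymphocyte gate, 51.0 and 105 with a gate of 5 or more UMIs, and 45.6 and 70.8 as a mean over cells. As a mean over cells 5 of the 10 genes were higher past 1.5-fold in macrophages, and 972 genes in all were higher and 896 lower (without an interval), against 305 and 461. Without the top cell of each gene 0 of the 10 genes and 278 of all genes were lower. With 5 or more UMIs the monocyte list had 1 higher gene. The median correlation of C1q with the other 7 genes was 0.55 and ranged from 0.49 to 0.65. Mitochondrial share, doublet removal and median ratio scaling moved no count for macrophages by over 1.5 times. The barcode left out and the lymphocyte left out were chosen after seeing the data. Depth limits Trem2, Fabp5 and Lgmn: thinned to 3000 UMIs per cell, macrophages with a UMI went from 9 to 5 at 7 weeks and from 10 to 7 at 12 weeks for Trem2, from 11 to 3 and 44 to 30 for Fabp5, and from 15 to 9 and 39 to 22 for Lgmn.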
